A study of Mus musculus with 6 samples.

Results

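The 10 genes described here belong to the NRF2 and glutathione redox system: *Nfe2l2*, *Keap1*, *Gclc*, *Gclm*, *Gsr*, *Gpx4*, *Txnrd1*, *Srxn1*, *Hmox1* and *Nqo1*. They were chosen by gene symbol, and 10 of the 59485 genes in the deposited table carried one of these symbols. RNA-seq had been done on sciatic nerves at P4 (postnatal day 4) from 3 control and 3 mutant mice, with 1 library per animal. Mutants carried *HtPA-Cre; Adar1 fl/fl; R26R*, in which Cre is driven by the human tissue plasminogen activator promoter, active in neural crest (NC) cells, and R26R is a YFP reporter of Cre activity. Controls were labelled wild-type, which in the study's methods means animals without Cre that carry R26R and either *Adar1 fl/fl* or *Adar1 fl/+*, so that floxed alleles and the reporter were present in both groups. The labels do not say which of these control genotypes each animal had. A nerve contains Schwann cells (SCs), which derive from the NC, together with fibroblasts, endothelial cells, perineurial cells, macrophages and blood, and each value is a sum over them. The values alone cannot tell fewer cells of a type from less RNA per cell. For SCs at P4, the study reports similar numbers in mutant and control nerves, counted by electron microscopy.

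NRF2, the product of *Nfe2l2*, is a transcription factor that binds antioxidant response elements (AREs) together with a small MAF protein. In unstressed cells KEAP1 holds NRF2 and presents it to a CUL3 ubiquitin ligase, and oxidants or electrophiles that modify KEAP1 cysteines let newly made NRF2 accumulate. Its known targets rebuild glutathione and thioredoxin, the thiol systems that remove peroxides at the expense of NADPH, and degrade heme and quinones. Because NRF2 is largely controlled as a protein, the level of its own mRNA does not report its activity.

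Values are normalised read counts, that is, reads counted by the authors on the constitutive regions of a gene and scaled for library size with DESeq2 factors. The lengths of those regions are not in the table, so levels were compared between libraries and not between genes. Changes are log2 fold changes on the scale log2(normalised read count + 1), mutant-labelled minus control, and a gene was called higher or lower at a limma adjusted p of at most 0.05 over the 25802 genes tested. Libraries had 50938349 to 68654387 reads on genes in controls and 57047095 to 78250094 in mutants. The targeted gene *Adar* was measured at 1602, 2066 and 1133 in controls and at 11768, 9311 and 9773 in mutants, a log2 fold change of 2.72 with an adjusted p of 4.1e-05. A higher level of the targeted gene runs against a label of deletion, and with 1 value per gene the deleted segment cannot be separated from the rest, so the groups are called control and mutant-labelled below. Across all genes tested, 4906 (19.0%) were called higher and 4134 (16.0%) lower, with a median log2 fold change of 0.03. Rescaling the libraries to the same total gave 6330 higher and 3104 lower, so that 67.1% instead of 54.3% of the calls were higher, and moved the median to 0.20. Among cell type markers, 5 of 6 SC genes and 6 of 7 erythroid genes were lower, 5 of 6 skeletal muscle genes were higher, and of 10 macrophage genes 4 were higher and 3 lower. Of 5 fibroblast genes 2 were lower, and their summed level was 1777657 to 2106505 in controls and 718507 to 1061209 in mutant-labelled libraries. Of 4 perineurial genes 1 was higher and 1 lower, with sums of 16524 to 19954 and 13634 to 15714. Of 4 T and NK cell genes tested 2 were higher, and the whole list of 5 summed to 41.8 to 63.3 and 158 to 324. Of 5 endothelial genes 1 was higher, and the sums of the endothelial, adipocyte and neutrophil lists overlapped between groups.

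Of the 10 redox genes, *Srxn1*, *Gclc*, *Gsr* and *Txnrd1* were called higher and *Hmox1* and *Gpx4* lower, while *Nfe2l2*, *Keap1*, *Gclm* and *Nqo1* were not called. That is 4 of 10 higher and 2 of 10 lower, beside backgrounds of 19.0% and 16.0%. None of the 10 reached the limits used in the study, at least 2-fold with an unadjusted p of at most 0.05, which 24.2% of all genes tested passed. The values of controls and mutant-labelled libraries did not overlap for 6 of the 10, whereas this held for 49.2% of all genes tested. The median log2 fold change of the 10 was 0.17. Beside these values, the summed SC markers were 1123149 to 1487769 in controls and 44928 to 198931 in mutant-labelled libraries, and the part of SCs, or of the other cell types whose markers differed, in the values of the members was not tested.

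**Figure D1:**
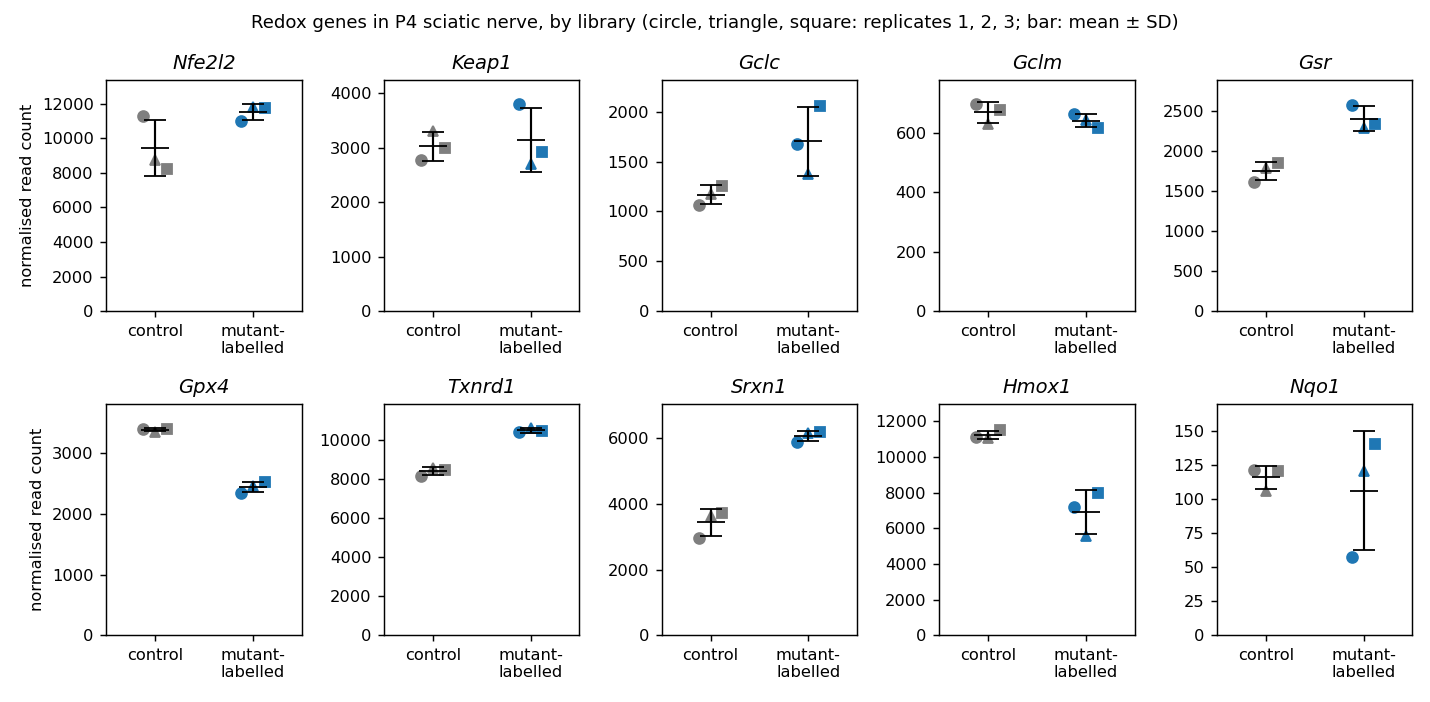
Normalised read count (vertical axes, each from 0) of the 10 redox genes in the 3 control and 3 mutant-labelled libraries; circles, triangles and squares are replicates 1, 2 and 3, and bars are the mean ± SD of 3 libraries. Mutant-labelled points lie above all controls for *Gclc*, *Gsr*, *Txnrd1* and *Srxn1*, below them for *Gpx4* and *Hmox1*, and overlap them in the other panels.

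Promoter sequence is shown for the members whose window held the core of an ARE, to set this feature beside their direction of change. RefSeq promoter windows (build GRCm38.p6, 300 bases each, from 250 before to 50 after a transcription start) were matched for 7 of the 10 genes, and *Hmox1*, *Gclc* and *Gsr* had no entry. The letters TGACNNNGC were searched on both strands. These letters begin like the AP-1 site TGACTCA and can overlap it. A match was found for 4 of these 7 genes, and for 14.0% of the genes and 12.4% of the 32851 windows in the whole set. Capitals mark the match in the sequences that follow, which are written 5′ to 3′ on the strand of the gene.
*Nfe2l2*: tcagcccaccTGACTCCGCcatgccccgga
*Gclm*: gctcccgggcGCACCGTCAactctcacgag
*Txnrd1*: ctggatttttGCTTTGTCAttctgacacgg
*Srxn1*: gcagtgggcaGCTAGGTCA
The *Nfe2l2* stretch is chr2:75704884-75704913 on the minus strand, and its match began 240 bases upstream of the start. The *Gclm* stretch is chr3:122245413-122245442 on the plus strand, with the match 134 bases upstream and read on the opposite strand. For *Txnrd1* the match lay 92 bases upstream of the second of 3 annotated starts, within chr10:82859104-82859133 on the plus strand, again on the opposite strand. The *Srxn1* match, within chr2:152105542-152105560 on the plus strand, began 28 bases after the start and also read on the opposite strand. The windows of *Keap1*, *Nqo1* and *Gpx4* held no such letters, which says nothing about AREs outside the window. Members with a match thus included genes that were called higher (*Txnrd1*, *Srxn1*) and genes that were not called (*Nfe2l2*, *Gclm*), and among genes of the pathway lists described further on 21 of 114 had a match.

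The regulators themselves were not called. *Nfe2l2* (GSMG0022999, chromosome 2, 75675513 to 75704666, mm10) was measured at 11272, 8735 and 8253 in controls and at 10984, 11820.4 and 11736 in mutant-labelled libraries. Control replicate 1 lay above mutant-labelled replicate 1, so the groups overlapped. The mean was 9420.0 ± 1622 in controls and 11513 ± 461 in mutant-labelled libraries (SD, n = 3), with a log2 fold change of 0.30 ± 0.12 (SE) and an adjusted p of 0.0920. This call rested on 1 library: without control replicate 1 the log2 fold change of *Nfe2l2* was 0.44 with an adjusted p of 0.0116. With all libraries rescaled to the same total it was 0.47, with an adjusted p of 0.0282.

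*Keap1* (GSMG0040437, chromosome 9, 21229730 to 21239332), the cysteine sensor that retains NRF2, had 2779, 3301 and 2992 in controls. The mutant-labelled libraries had 3798, 2696 and 2918, with both the highest and the lowest of the 6 values among them. Its log2 fold change was 0.04 with a 95% interval of -0.29 to 0.37 (adjusted p = 0.848), and its sign turned when control replicate 1 (-0.018) or mutant-labelled replicate 1 (-0.11) was left out. The ratio of *Nfe2l2* to *Keap1* within a library was 3.15 ± 0.78 in controls and 3.77 ± 0.78 in mutant-labelled libraries (SD, n = 3), a log2 difference of 0.26 with overlapping groups (exact two-sided permutation p = 0.3). With 3 animals against 3 this test cannot give a p under 0.1.

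Among 13 other regulators and partners of NRF2, 5 were called higher and 2 lower, with a median log2 fold change of 0.01. For this list and those below, the shares over all genes tested were 19.0% higher and 16.0% lower. *Nfe2l1*, which encodes the related factor NRF1, was measured at 12172, 12132 and 11891 in controls and 25091, 23039 and 24619 in mutant-labelled libraries. These levels rose by 1.01 on the log2 scale (adjusted p = 4.81e-05), and the groups were far apart compared with their spread. The small MAF proteins pair with NRF2 and NRF1 on DNA. *Maff* rose from 334, 411 and 373 in controls to 4782, 4595 and 3822, a log2 fold change of 3.56 (adjusted p = 2.39e-06). *Mafk* rose by 1.19 (adjusted p = 0.000132), and *Mafg* had a log2 fold change of 0.31 (adjusted p = 0.0631), which passed the threshold only without control replicate 1 (0.39, adjusted p = 0.0344) or with libraries rescaled to the same total. *Sqstm1* encodes p62, an autophagy adaptor that binds KEAP1. It was measured at 6795, 7479.8 and 7290.3 in controls and 13127, 11439 and 14565 in mutant-labelled libraries (log2 fold change 0.85, adjusted p = 0.000520). *Bach1*, a repressor that competes with NRF2 at AREs, rose by 0.32 (adjusted p = 0.0214), and *Cul3*, the ligase scaffold that acts with KEAP1, fell by 0.36 (adjusted p = 0.0114). Both calls were sensitive to single libraries: *Bach1* was not called without control replicate 2 or mutant-labelled replicate 2 or 3 (log2 fold change 0.28 to 0.32), and *Cul3* was not called without control replicate 2 or 3 (-0.35 and -0.32).

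The enzyme of the first step of glutathione synthesis is made of a catalytic subunit, *Gclc*, and a modifier subunit, *Gclm*, and both were members. *Gclc* (GSMG0039830, chromosome 9, 77754533 to 77794489) had 1067, 1175 and 1259.6 in controls and 1681, 1373 and 2061 in mutant-labelled libraries. All mutant-labelled values were above all controls, and they were spread more widely (345 against 96.5 SD). *Gclc* rose by 0.53 (95% interval 0.16 to 0.90, adjusted p = 0.0335). It was not called in the fits without control replicate 1, 2 or 3 or without mutant-labelled replicate 1 or 3, with log2 fold changes of 0.47, 0.54, 0.59, 0.53 and 0.38 and adjusted p-values of 0.0943, 0.0847, 0.0567, 0.0810 and 0.0948. Without mutant-labelled replicate 2 its log2 fold change was 0.68 (adjusted p = 0.0128). With libraries rescaled to the same 75th percentile *Gclc* was not called either (0.46, adjusted p = 0.0527).

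*Gclm* (GSMG0024878, chromosome 3, 122245557 to 122267215) was measured at 699.6, 631 and 679 in controls and at 663, 645 and 618 in mutant-labelled libraries. The groups overlapped within a narrow range. Its log2 fold change was -0.06 with a 95% interval of -0.36 to 0.24 (adjusted p = 0.751), and it was 0.10 with libraries rescaled to the same total. The ratio of *Gclc* to *Gclm* within a library does not depend on scaling. It was 1.53, 1.86 and 1.85 in controls and 2.53, 2.13 and 3.33 in mutant-labelled libraries, higher in all 3 of the latter by 0.59 on the log2 scale (exact two-sided permutation p = 0.1, the smallest this design allows).

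In the list of 12 other genes of glutathione supply and turnover, 5 were called higher and 3 lower, with a median log2 fold change of 0.21. Cystine, the source of the cysteine in glutathione, enters cells through the exchanger made of *Slc7a11* and *Slc3a2*. *Slc7a11* was almost without reads in controls, at 15.5, 0 and 2.53, and was measured at 267, 141 and 446 in mutant-labelled libraries. It rose by 6.05 (adjusted p = 0.00190), a size that depends on the added constant and ranged from 4.18 to 7.32 across settings. It was 7.10 without control replicate 1 and 5.07 without control replicate 2. *Slc3a2* had 2126, 2677 and 2983 in controls and 8178, 6149.9 and 7564 in mutant-labelled libraries (log2 fold change 1.49, adjusted p = 0.000191). *Cth*, which makes cysteine from cystathionine, rose by 3.38 (adjusted p = 0.000225). *Chac1* encodes an enzyme that breaks glutathione down inside the cell. It showed the largest change of any gene in the redox lists: from 28.9, 11.3 and 22.8 in controls it rose to 3667, 2679 and 3539.9, a log2 fold change of 7.31 (adjusted p = 4.28e-06). *Ggt1*, which cleaves glutathione outside the cell, fell by 1.79 (adjusted p = 0.00739). *Gss*, the enzyme of the second step of synthesis, had 1298, 1299 and 1750.0 in controls and 1146, 967 and 1206 in mutant-labelled libraries, and was not called (log2 fold change -0.38, adjusted p = 0.0948).

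Genes that use glutathione moved in different directions. *Gsr* (GSMG0037175, chromosome 8, 33653238 to 33698161) encodes glutathione reductase, which returns oxidised glutathione to its reduced form with NADPH. It was measured at 1620.1, 1791 and 1848 in controls and at 2583, 2288 and 2342 in mutant-labelled libraries, with every mutant-labelled value above every control. *Gsr* rose by 0.46 (95% interval 0.21 to 0.70, adjusted p = 0.0113), or 1.37 times in the mean. The call was kept in all 6 fits that left out a library, and the adjusted p was 0.0517 without the mean-variance trend.

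*Gpx4* (GSMG0003246, chromosome 10, 80047166 to 80056439) encodes the selenium-dependent peroxidase that reduces lipid hydroperoxides in membranes and restrains ferroptosis. Its control values were nearly identical, at 3387, 3347 and 3392, and the mutant-labelled values were 2345, 2456 and 2514. The coefficient of variation was 0.736% in controls and 3.52% in mutant-labelled libraries, and the groups were well apart. *Gpx4* fell by 0.47 (95% interval of the log2 fold change -0.67 to -0.27, adjusted p = 0.00421), a ratio of 0.722, and it was called lower in all 17 other fits.

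Among 8 other glutathione peroxidases and glutaredoxins tested, 2 were called higher and 3 lower. *Gpx1*, the abundant cytosolic enzyme, had 7000.2, 6984 and 7791 in controls and 13095, 12278 and 13272 in mutant-labelled libraries (log2 fold change 0.83, adjusted p = 0.000213). The secreted form *Gpx3* rose by 0.88 (adjusted p = 0.00465), and *Gpx7*, an enzyme of the endoplasmic reticulum, fell by 0.52 (adjusted p = 0.00509). *Glrx5*, a mitochondrial glutaredoxin, was lower by a log2 fold change of -0.39 (adjusted p = 0.0384), a call lost without any single library other than control replicate 1 (-0.42 to -0.29). Among the selenium-dependent peroxidases, *Gpx1* and *Gpx3* were thus called higher and *Gpx4* lower. For the 11 genes of selenoprotein synthesis and other selenoproteins, 2 were called higher and 4 lower, with a median log2 fold change of -0.23. *Selenop*, the plasma selenium carrier, fell by 1.23 (adjusted p = 8.22e-05). *Selenow*, a small selenoprotein abundant in muscle, rose by 1.12 (adjusted p = 2.61e-05), beside summed skeletal muscle markers of 6110 to 32211 in controls and 40330 to 306302 in mutant-labelled libraries. The part of muscle RNA in this value was not tested. *Secisbp2* and *Sephs2*, which act in making selenoproteins, had log2 fold changes of 0.48 (adjusted p = 0.0188) and -0.46 (adjusted p = 0.0335). The *Secisbp2* call was lost without control replicate 2 or mutant-labelled replicate 1 or 3 (0.40 to 0.46), and the *Sephs2* call without any single library other than mutant-labelled replicate 2 (-0.53 to -0.35).

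The thioredoxin genes among the members both rose. *Txnrd1* (GSMG0003326, chromosome 10, 82833951 to 82897724) encodes the cytosolic selenoenzyme that reduces thioredoxin with NADPH. It was measured at 8176, 8566 and 8489 in controls and at 10427, 10657 and 10458 in mutant-labelled libraries. Both groups were tight (SD 207 and 125) and did not overlap. *Txnrd1* rose by 0.32 (95% interval 0.15 to 0.50, adjusted p = 0.0127). The adjusted p was 0.0845 without the mean-variance trend.

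*Srxn1* (GSMG0021967, chromosome 2, 152105524 to 152111375) encodes sulfiredoxin, which repairs peroxiredoxins that peroxide has over-oxidised. It had 2956, 3633 and 3727 in controls and 5877, 6154 and 6173 in mutant-labelled libraries. The lowest mutant-labelled value was well above the highest control. *Srxn1* rose by 0.83 (95% interval 0.57 to 1.08, adjusted p = 0.000711), or 1.76 times in the mean, the largest rise among the 10 members, and it was called in all 17 other fits.

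**Figure D2:**
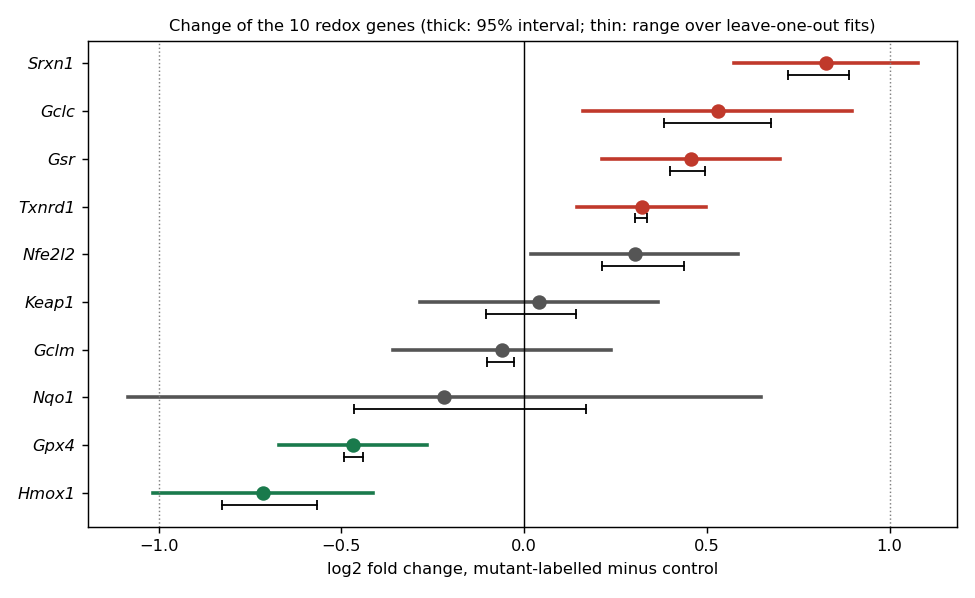
Log2 fold change (horizontal axis, mutant-labelled minus control) of the 10 redox genes from the limma fit of 3 against 3 libraries; points are estimates, thick lines 95% intervals, thin lines the range when each library is left out, red and green mark genes called higher and lower, grey genes not called, and dotted lines a 2-fold change. *Srxn1* at 0.83 and *Hmox1* at -0.71 lie at the ends, *Nqo1* has the widest interval (-1.09 to 0.65), and no estimate passes a dotted line.

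The other thioredoxin and peroxiredoxin genes were divided. Of 12 other thioredoxin and peroxiredoxin genes, 4 were called higher and 3 lower, with a median log2 fold change of -0.05. *Txn1*, the cytosolic thioredoxin that TXNRD1 reduces, had 5874, 6890.2 and 6375 in controls and 11696, 12064 and 13030.0 in mutant-labelled libraries (log2 fold change 0.94, adjusted p = 0.000164). *Txnip*, whose product binds and inhibits thioredoxin, rose by 1.26 (adjusted p = 0.000329). *Sesn2*, a stress-induced sestrin, rose from 329.8, 185.2 and 183.7 to 2027, 1622 and 1853, a log2 fold change of 3.02 (adjusted p = 5.02e-05). The peroxiredoxins are peroxidases, of which thioredoxin recharges most but not all and sulfiredoxin repairs some. They were called in both directions: of *Prdx1* to *Prdx6*, 3 of 6 were called lower and 1 higher. *Prdx1* was measured at 15243, 16231 and 16315 in controls and 9920.2, 10985 and 11814 in mutant-labelled libraries, and fell by 0.55 (adjusted p = 0.00238). *Prdx6* fell by 0.77 (adjusted p = 0.00100). *Prdx2* and *Prdx5*, named here after their values were seen, had log2 fold changes of -0.61 and 0.25 (adjusted p = 0.00352 and 0.0393). *Prdx2* is abundant in red blood cells, and the summed erythroid markers were 55078 to 77130 in controls and 5151 to 15734 in mutant-labelled libraries; the part of blood in the *Prdx2* value was not tested.

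NADPH feeds both *Gsr* and *Txnrd1*. The 6 genes listed for its supply include enzymes of the non-oxidative pentose phosphate branch, which make no NADPH themselves. Of these 6, 4 were called lower and 1 higher, beside 16.0% and 19.0% of all genes tested. The median log2 fold change of the list was -0.88. *G6pdx*, the entry enzyme of the pentose phosphate pathway, was not called (2071, 2189 and 2031 against 2225, 2107 and 2556, log2 fold change 0.13, adjusted p = 0.404). *Tkt*, the transketolase of that branch, fell from 31066, 32311 and 35188 to 13482, 11543 and 11541, a log2 fold change of -1.43 (adjusted p = 2.50e-05). *Taldo1* of the same branch fell by 1.13 (adjusted p = 5.80e-05), and *Idh1*, the cytosolic isocitrate dehydrogenase, by 1.42 (adjusted p = 4.72e-05). Malic enzyme *Me1* was the gene that rose, from 1022, 1350.3 and 1581 to 4876, 3368 and 2712 (log2 fold change 1.45, adjusted p = 0.00181). The summed SC markers given for the members were lower beside this list too, and their part in it was not tested.

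**Figure D3:**
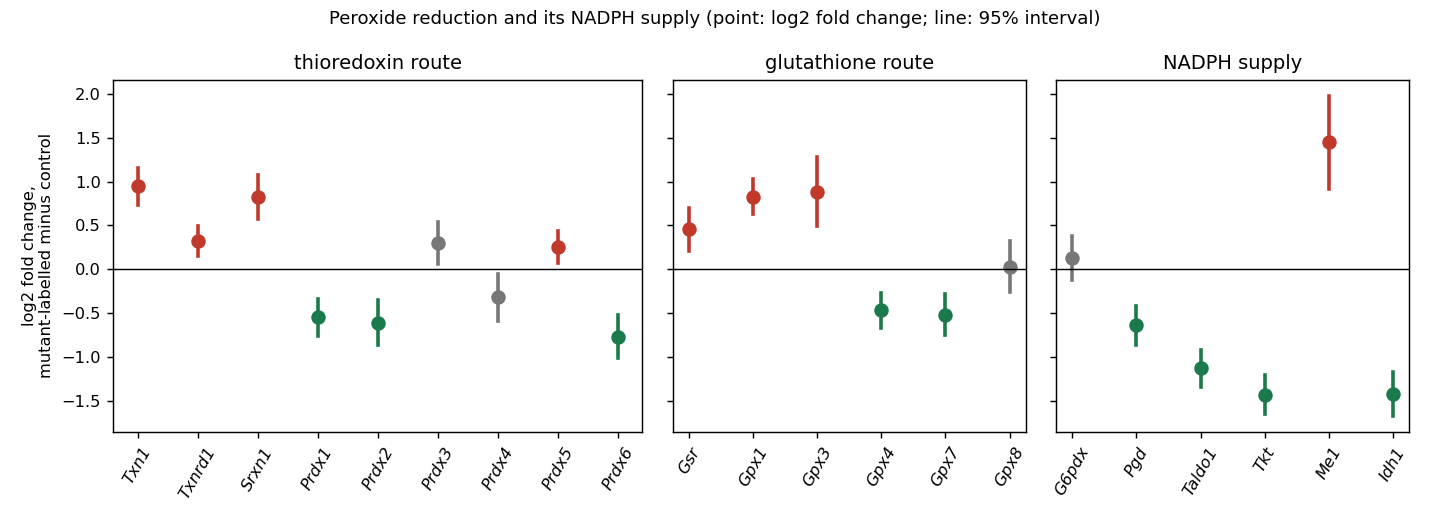
Log2 fold change (vertical axis, mutant-labelled minus control) of genes of the thioredoxin route, the glutathione route and NADPH supply; points are limma estimates from 3 against 3 libraries, lines 95% intervals, red and green mark genes called higher and lower, grey genes not called. *Txn1* (0.94), *Txnrd1* (0.32), *Srxn1* (0.83) and *Gsr* (0.46) lie above 0, whereas *Prdx1* (-0.55), *Gpx4* (-0.47), *Tkt* (-1.43) and *Idh1* (-1.42) lie below it. The thioredoxin panel holds *Prdx1* to *Prdx6*, not all of which thioredoxin recharges.

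*Hmox1* (GSMG0037465, chromosome 8, 75093617 to 75100592) encodes heme oxygenase 1, the inducible enzyme that breaks heme down to biliverdin, iron and carbon monoxide, and it is abundant in macrophages that take up red blood cells. It was measured at 11103, 11051 and 11482 in controls and at 7169.9, 5566 and 8001 in mutant-labelled libraries. All mutant-labelled values were below all controls and much more variable, with a coefficient of variation of 17.9% against 2.10%. *Hmox1* fell by 0.71 (95% interval of the log2 fold change -1.01 to -0.41, adjusted p = 0.00378), a ratio of 0.617, and was called lower in all 17 other fits (-0.83 to -0.55). The summed macrophage markers overlapped between groups, at 21091 to 26704 in controls and 21708 to 25106 in mutant-labelled libraries. Within that list *Csf1r*, *Cx3cr1* and *Mrc1* fell and *Aif1*, *C1qa*, *C1qc* and *Ptprc* rose. The summed erythroid markers were lower in every mutant-labelled library, as given above for *Prdx2*. The part of macrophages and blood in the *Hmox1* value was not tested.

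Other genes of heme and iron handling either fell or were not called: none of 12 was higher and 5 were lower. The shares over all genes tested were 19.0% and 16.0%, and the median log2 fold change of the list was -0.29. *Slc48a1*, a heme transporter of the lysosome, had 6135, 6390.3 and 6192 in controls and 2782, 3291 and 2907 in mutant-labelled libraries (log2 fold change -1.06, adjusted p = 9.99e-05). *Blvrb*, a biliverdin reductase that is prominent in red blood cells, fell by 0.68 (adjusted p = 0.00259), whereas *Blvra*, the main biliverdin reductase, had 1005, 971 and 972 against 945, 1174 and 1163 and was not called (log2 fold change 0.15, adjusted p = 0.412). The ferritin subunits *Fth1* and *Ftl1*, which store iron, had log2 fold changes of -0.34 (adjusted p = 0.0212) and -0.35 (adjusted p = 0.0238). *Slc40a1*, the iron exporter ferroportin, was lower by a log2 fold change of -1.08 (adjusted p = 0.0286). These 3 calls were the weakest of the list: that of *Fth1* was lost without control replicate 2 or 3 or mutant-labelled replicate 3 (-0.33 to -0.29), that of *Ftl1* without these or mutant-labelled replicate 2 (-0.34 to -0.30), and that of *Slc40a1* without any single library other than control replicate 3 (-1.15 to -0.77). All 3 were also lost with libraries rescaled to the same total (adjusted p = 0.113, 0.117 and 0.0584).

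*Nqo1* (GSMG0038886, chromosome 8, 107388225 to 107403273) encodes the quinone reductase that is a widely used readout of NRF2. Its counts were low, with 79 to 142 reads in a library, and its values were 121, 106 and 120.4 in controls and 57.5, 121 and 140.4 in mutant-labelled libraries. Mutant-labelled replicate 1 was the lowest of the 6 libraries and replicate 3 the highest. The log2 fold change was -0.22 with a 95% interval of -1.09 to 0.65 (adjusted p = 0.690), and the coefficient of variation was 7.43% in controls and 40.8% in mutant-labelled libraries. Without mutant-labelled replicate 1 the log2 fold change was 0.17 (adjusted p = 0.699).

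Of 15 other detoxifying reductases and exporters, 5 were called higher and 3 lower, with a median log2 fold change of 0.38. *Akr1b8*, an aldo-keto reductase, had 738, 764 and 864 in controls and 1808, 2229 and 2292 in mutant-labelled libraries (log2 fold change 1.41, adjusted p = 0.000130). *Osgin1*, an oxidative stress-induced growth inhibitor, was measured at 48.9, 5.67 and 13.9 in controls and 143, 119 and 170.1 in mutant-labelled libraries, and rose by 3.07 (adjusted p = 0.00976). The size of the *Osgin1* change rested on the controls, and was 3.84 without control replicate 1 and 2.39 without control replicate 2. *Abcc4*, an exporter of organic anions, fell by 1.11 (adjusted p = 0.000391), and *Ptgr1*, which reduces lipid-derived aldehydes and prostaglandins, by 0.98 (adjusted p = 0.00237). Of 23 glutathione transferases, which couple glutathione to electrophiles, 7 were called lower and 2 higher, with a median log2 fold change of -0.46. Over all genes tested, 16.0% were lower and 19.0% higher. *Gstm7* had 261, 279 and 361 in controls and 54.6, 45.3 and 37.6 in mutant-labelled libraries (log2 fold change -2.69, adjusted p = 0.000245). *Gstk1* fell by 1.84 (adjusted p = 0.00188). The other named transferases varied widely within a group. *Gsta4* had 3285, 997 and 551 in controls and 105, 410.1 and 406 in mutant-labelled libraries, and its call (log2 fold change -2.22, adjusted p = 0.0383) was lost without any single library other than control replicate 3 (-2.55 to -1.51). *Mgst1* had 1022, 669.9 and 776 against 1163, 3019 and 1568 (log2 fold change 1.12, adjusted p = 0.0271), a call lost without control replicate 2 or 3 or mutant-labelled replicate 3, and its log2 fold change ran from 0.74 (without mutant-labelled replicate 2) to 1.42 (without mutant-labelled replicate 1) when a library was left out. Reads of the near-identical genes of the *Gsta* and *Gstm* families can be split by the counting, so single members are uncertain.

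**Figure D4:**
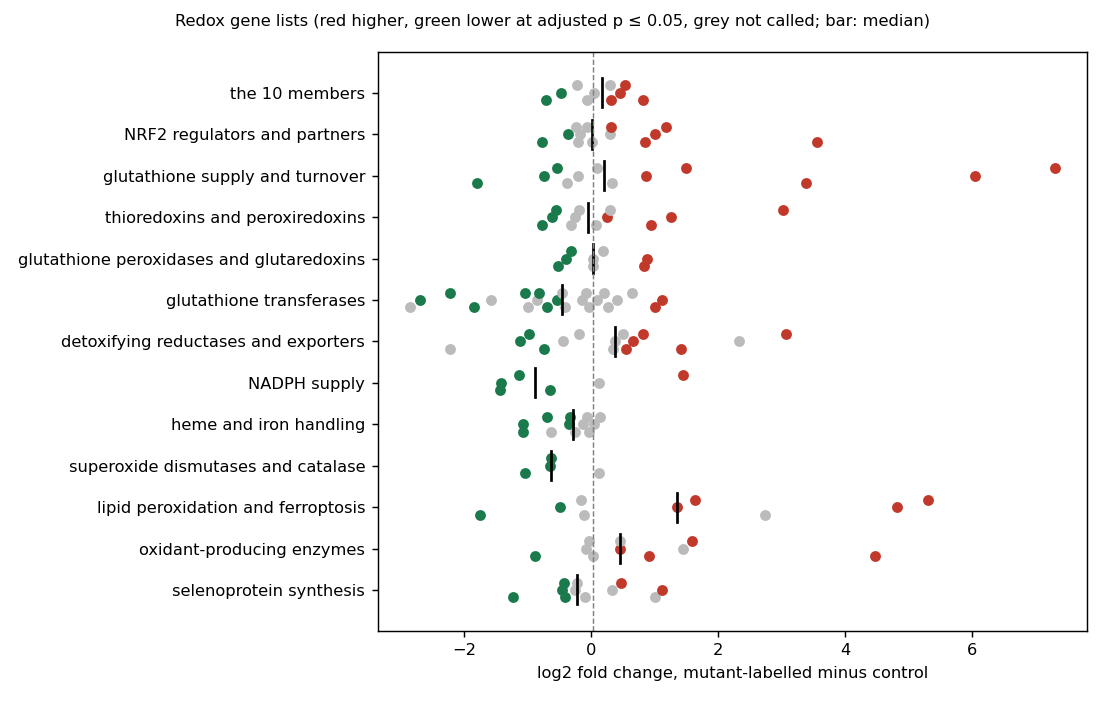
Log2 fold change (horizontal axis, mutant-labelled minus control) of every tested gene in the 10 members and in each list of the redox system; each point is a gene, red called higher, green called lower, grey not called, black bars are list medians, and the dashed line is the median of all genes tested, 0.03. List medians run from -0.88 for NADPH supply to 1.35 for lipid peroxidation and ferroptosis, and the median of the 10 members is 0.17.

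Superoxide dismutases and catalase remove oxidants without thiols. Of these 4 genes, 3 were called lower and none higher. *Cat*, catalase, had 8599, 9058 and 8521 in controls and 4443, 4390.1 and 3903 in mutant-labelled libraries (log2 fold change -1.04, adjusted p = 7.90e-05). The summed erythroid markers given above for *Prdx2* were lower beside it too, and the part of blood in the *Cat* value was not tested. The mitochondrial *Sod2* fell by 0.62 (adjusted p = 0.000586). The extracellular *Sod3* was lower by a log2 fold change of -0.65 (adjusted p = 0.0187), a call lost without control replicate 2 or mutant-labelled replicate 1 or 3 (-0.62 to -0.52). The cytosolic *Sod1* was measured at 9963, 10756 and 9271 against 11264, 10456 and 10909 and was not called (log2 fold change 0.12, adjusted p = 0.316). With libraries rescaled to the same total, *Sod1* was called higher (0.29, adjusted p = 0.0334) and *Sod3* was not called (adjusted p = 0.0530).

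*Gpx4* acts against the lipid peroxides that lead to ferroptosis, and of 9 further genes of lipid peroxidation and ferroptosis 4 were called higher and 2 lower (median log2 fold change 1.35). *Acsl4*, which loads membranes with oxidisable fatty acids, was measured at 519, 511 and 471 in controls and 1187, 1228 and 1424 in mutant-labelled libraries (log2 fold change 1.35, adjusted p = 0.000152). *Gch1*, the first enzyme of tetrahydrobiopterin synthesis, is also known as a target of interferon, and it rose from 72.2, 38.7 and 25.3 to 2518, 1339 and 1404 (log2 fold change 5.31, adjusted p = 4.10e-05). *Ptgs2*, the inducible cyclooxygenase, rose by 4.82 (adjusted p = 0.00112) from 24.4, 17.0 and 2.53 in controls. Without control replicate 3 the *Ptgs2* value was 3.95, and with 10 instead of 1 added before the logarithm it was 3.91. The lipoxygenases went apart: *Alox12* rose by 1.64 (adjusted p = 0.00798) and *Alox5*, typical of myeloid cells, fell by 1.74 (adjusted p = 0.00796). *Aifm2*, which protects membranes in parallel to GPX4, had 784, 917 and 843 against 807, 791 and 695 (log2 fold change -0.15, adjusted p = 0.420). The list thus holds genes that promote lipid peroxidation and genes that counter it, and its median does not stand for either.

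Enzymes that make oxidants were read for comparison, and of 10 tested 4 were called higher and 1 lower, with a median log2 fold change of 0.45. *Xdh*, xanthine dehydrogenase, had 183.2, 225 and 115 in controls and 4173, 3129 and 4045 in mutant-labelled libraries (log2 fold change 4.47, adjusted p = 9.69e-06). *Duox1*, a hydrogen peroxide-producing oxidase, rose by 1.60 (adjusted p = 0.00459). *Ncf4*, a cytosolic subunit of the phagocyte oxidase, had a log2 fold change of 0.92 (adjusted p = 0.0268), a call lost without any of the 3 controls or without mutant-labelled replicate 1 (0.68 to 0.94). Over all lists, 135 of 137 listed genes were tested, and 34 were called higher and 40 lower, with a median log2 fold change of -0.08. The shares over all genes tested were 19.0% higher and 16.0% lower.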

How the data were processed

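The authors prepared oriented cDNA of poly-A RNA, mapped paired reads to mm10 with STAR 2.4.0 and counted those on constitutive regions of FAST DB v2018_1 genes. The deposited table holds a signal per gene and library, namely these counts divided by DESeq2 size factors, and the strand setting of the counting is not given in the sources used here. No single gene overlapping a member held more than 3.85% of its value. Dividing by the value of a single read gave whole reads for 100% of values (tolerance 0.1), used for the edgeR and DESeq2 alternatives. All columns were used.

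log2(value + 1) was fitted with limma (lmFit, eBayes with trend) as mutant minus control, without a block, for genes with a mean of at least 10 in at least 1 genotype, with Benjamini-Hochberg adjustment over all 25802 genes tested. Intervals are 95% intervals of this fit and errors are SDs over 3 animals. Alternatives were 11 other settings and 6 fits leaving out a library. Reads were amplified by PCR and carry no molecular identifiers, so they do not count molecules.

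The 10 members, the lists and the markers were chosen with earlier results of these data known. Named genes are the members, up to 4 called genes per list with the largest absolute log2 fold change, and a set that acts directly with a member. The values of 1 gene that this rule names are not reported here. Replicate numbers stand for different animals. Versions were DESeq2 1.42.0, edgeR 4.0.16 and limma 3.58.1 in R 4.3.3, and pandas 2.3.3, numpy 2.4.6 and matplotlib 3.10.9 in Python 3.11.15.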

Additional observations from a re-analysis of the deposited data

How the results depend on the processing

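Over 11 other settings and 6 fits without a library, *Srxn1* stayed higher and *Hmox1* and *Gpx4* lower in all, and no member passed 2-fold. The count of members called higher was 4, but 1 with eBayes without trend, where *Gsr* (adjusted p = 0.0517), *Txnrd1* (0.0845) and *Gclc* (0.0981) missed the threshold, and 1 to 5 over all settings; 2 members were lower in all. Leaving out a library gave 3 to 4 members higher, 6744 to 8275 genes called (9040 with all libraries) and 58 to 71 of the pathway genes called (74 with all). The 11 other settings gave 57 to 79 pathway genes called, with 57 for eBayes without trend. Among the named genes, that setting lost *Bach1*, *Cul3*, *Glrx5*, *Gsta4*, *Mgst1*, *Fth1*, *Ftl1*, *Slc40a1*, *Sod3*, *Sephs2* and *Secisbp2* (adjusted p from 0.0729 to 0.122). Signs turned for *Gclm* (0.10) and *Aifm2* (0.014) after rescaling to the same total and for *Keap1* (-0.027) after rescaling to the same 75th percentile, and with a library left out *Keap1* ran from -0.11 to 0.14 and *Nqo1* from -0.47 to 0.17. Of 53 named pathway genes called, 41 were called in every fit. Same-numbered libraries did not deviate together (correlations -0.06, -0.06 and 0.01, and 2 of 6 libraries correlated best with their own number), and the fit with a replicate block called 7730 genes and lost *Txnrd1* (adjusted p = 0.0514) and, among the named genes, *Bach1* (0.0628), *Glrx5* (0.0762), *Gsta4* (0.0636), *Fth1* (0.0678), *Ftl1* (0.0674) and *Sephs2* (0.0737). Rescaling to the same total also lost *Cul3* (0.0783), *Glrx5* (0.154), *Gsta4* (0.0531) and *Sephs2* (0.127). Rescaling to the same 75th percentile lost *Gclc* (0.0527) and *Bach1* (0.0712). Few reads in controls limit the size given for *Slc7a11*.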
